A study of Homo sapiens with 8 samples.

Results

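The drug, alcohol and aldehyde metabolizing enzymes examined here were the genes whose symbols begin with CYP (cytochrome P450, without CYP51A1), UGT, SULT, FMO, ALDH or ADH followed by a family number. The deposited table of translation efficiency (TE) held 24 of them among 11244 genes: 9 CYP genes, 13 ALDH genes, SULT1A1 and ADH5. No UGT or FMO gene was among them. Each gene was compared between METTL5-WT and METTL5-KO cells in input RNA, in ribosome-protected fragments (RPF) and in TE, the RPF value relative to the input value.

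Ribosome profiling was done in cells labelled HepG2, a human cell line established from a liver cancer. There were 8 libraries, from 2 METTL5-WT and 2 METTL5-KO lysates, each giving an input library and an RPF library. METTL5-KO cells carried a CRISPR-Cas9 disruption of METTL5, the methyltransferase for N6-methyladenosine in 18S rRNA. The labels and the study's methods name different exon pairs as the target. Cells of both genotypes were treated with cycloheximide at 100 µg/mL for 7 min, which holds ribosomes on the mRNA. Cells of each genotype were grown from single isolated clones, and which clone gave each replicate is not given in the sources used here. A difference between clones and a difference between genotypes therefore cannot be told apart. Nothing in the labels says that replicates came from separate cultures, so the p-values measure only the spread between these libraries, which may be technical.

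Cytochrome P450 enzymes are heme proteins that oxidize drugs, steroids, retinoids and vitamin D with electrons passed on by a reductase. Alcohol dehydrogenases (ADH) turn alcohols into aldehydes, and aldehyde dehydrogenases (ALDH) oxidize aldehydes from alcohol, lipid peroxidation, retinal and amino acids to acids. UGT and SULT enzymes then attach glucuronic acid or sulfate, and FMO enzymes oxidize nitrogen and sulfur atoms. The liver is the organ best known for these reactions, and hepatocytes carry many members of each family.

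Input libraries held 10710226 to 15307257 counts and RPF libraries 3970779 to 9255921 reads, with the METTL5-WT RPF libraries the shallowest. The labelled cell type was checked against hepatocyte markers. Of 10 such markers, 8 had at most 3 counts in every input library, the highest count of any was 9 (AFP in a METTL5-KO library), and ALB had 0, 0, 0 and 1 counts. The libraries labelled HepG2 thus lacked the defining markers of that cell type at this depth. Of 12 markers of other cell types, 3 (COL1A1, COL3A1 and DCN, genes of connective tissue matrix) had at least 10 counts, and the list summed to 3646 to 3836 counts in METTL5-WT and 3325 to 4308 in METTL5-KO. COL1A1 rose in input (log2 0.44 ± 0.14 SE, edgeR adjusted p = 0.0225) and not in RPF, and COL3A1 fell in both (input −0.51 ± 0.11, edgeR adjusted p = 0.00192; RPF −0.55 ± 0.09, limma adjusted p = 0.000322), while DCN did not pass in input. These changes stand beside those of the enzymes below, and their part in them was not tested. The blood marker HBB and the epithelial marker EPCAM were at 0 in all 4 input libraries. The part of cell identity in the results below was not tested.

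METTL5 (ENSG00000138382, hg38 chromosome 2 from 169810081 to 169824931, minus strand) had 490 and 542 input counts in METTL5-WT against 208 and 151 in METTL5-KO. In RPF it had 158 and 226 reads in METTL5-WT against 41 and 21 in METTL5-KO. METTL5 was lower in both METTL5-KO lysates by both measures. The fitted change was −1.86 ± 0.18 (SE) on the log2 scale in input (edgeR quasi-likelihood, adjusted p = 7.17e-08) and −3.56 ± 0.30 in RPF (limma, adjusted p = 1.95e-07). In TE it was −1.69 ± 0.42 (limma, adjusted p = 0.0324, and edgeR, adjusted p = 0.00366).

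Of the 24 genes, 7 passed the tests in both input and RPF with the same direction, 5 higher and 2 lower in METTL5-KO. The promoters of these genes are shown because each changed in input and RPF alike. The RefSeq table (GRCh38.p14) gave 5 of the 7, each from 250 bases before to 50 bases after the annotated start. The remaining 2 are ALDH2 and ALDH3A1. Letters in capitals mark GCGTG, the core of the element bound by the aryl hydrocarbon receptor, AGGTCA, the half-site of nuclear receptors such as RXRA, and TGACNNNGC, the core of the antioxidant response element, each searched on both strands. ALDH3A2 lies at chr17:19647886-19648185 (plus strand), ALDH1B1 at chr9:38392452-38392751 (plus), CYP2S1 at chr19:41192969-41193268 (plus), ALDH1A3 at chr15:100879581-100879880 (plus) and ALDH18A1 at chr10:95656662-95656961 (minus). The first 3 sequences belong to genes that rose in METTL5-KO cells and the last 2 to genes that fell.
ALDH3A2: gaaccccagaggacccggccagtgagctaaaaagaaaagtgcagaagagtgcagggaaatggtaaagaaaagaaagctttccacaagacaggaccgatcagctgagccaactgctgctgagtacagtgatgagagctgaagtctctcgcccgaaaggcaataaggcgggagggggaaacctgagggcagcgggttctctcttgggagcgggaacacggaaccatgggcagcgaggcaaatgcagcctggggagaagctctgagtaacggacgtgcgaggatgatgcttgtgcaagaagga
ALDH1B1: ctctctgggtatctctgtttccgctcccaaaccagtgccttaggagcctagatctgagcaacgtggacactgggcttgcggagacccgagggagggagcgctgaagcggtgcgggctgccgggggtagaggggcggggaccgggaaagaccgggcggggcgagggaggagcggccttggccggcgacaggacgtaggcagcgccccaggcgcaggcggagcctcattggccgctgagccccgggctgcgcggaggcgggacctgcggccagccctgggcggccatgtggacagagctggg
CYP2S1: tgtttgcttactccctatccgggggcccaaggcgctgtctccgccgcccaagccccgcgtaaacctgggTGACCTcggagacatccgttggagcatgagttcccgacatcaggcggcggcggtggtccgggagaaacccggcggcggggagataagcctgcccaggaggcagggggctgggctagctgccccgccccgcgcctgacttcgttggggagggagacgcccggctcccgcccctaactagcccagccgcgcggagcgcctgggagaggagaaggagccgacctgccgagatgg
ALDH1A3: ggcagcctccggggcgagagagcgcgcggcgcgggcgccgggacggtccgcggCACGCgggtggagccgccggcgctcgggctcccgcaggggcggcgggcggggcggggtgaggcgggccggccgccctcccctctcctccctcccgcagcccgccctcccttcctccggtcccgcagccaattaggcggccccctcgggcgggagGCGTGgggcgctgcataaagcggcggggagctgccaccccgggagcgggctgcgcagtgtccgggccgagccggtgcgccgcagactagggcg
ALDH18A1: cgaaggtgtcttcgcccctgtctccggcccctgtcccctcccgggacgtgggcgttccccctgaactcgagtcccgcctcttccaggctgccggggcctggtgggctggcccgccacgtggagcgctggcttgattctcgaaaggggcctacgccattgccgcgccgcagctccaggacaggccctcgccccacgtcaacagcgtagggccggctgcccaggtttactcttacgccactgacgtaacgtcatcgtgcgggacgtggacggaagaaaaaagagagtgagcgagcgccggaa
The promoters of ALDH3A2, ALDH1B1 and ALDH18A1 held none of these letters. The CYP2S1 promoter held AGGTCA once, on the opposite strand, and the ALDH1A3 promoter held GCGTG at 2 places. Over all 27305 promoters of the table, 36.3% held GCGTG, 13.9% AGGTCA and 13.6% TGACNNNGC. Of the 18 members with a sequence in the table, 5 held GCGTG (ADH5, ALDH1A3, ALDH5A1, CYP20A1 and CYP2U1), 3 held AGGTCA (CYP27C1, CYP2B6 and CYP2S1) and 1 held TGACNNNGC (CYP2B6).

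The families differed in how many of their genes were seen at all. The input count table held 119 protein-coding genes of these families, and 77 of the 95 outside the TE table had at most 3 counts in every input library. All 19 UGT genes were among those 77, as were 36 of 56 CYP genes and 11 of 13 SULT genes. CYP3A4, the main drug-oxidizing P450 of adult liver, is not among the genes of the TE table. By contrast, 13 of 19 ALDH genes were in the TE table. The TE table held no gene without reads in a library, so a gene absent from one genotype is not covered by it.

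**Figure D1:**
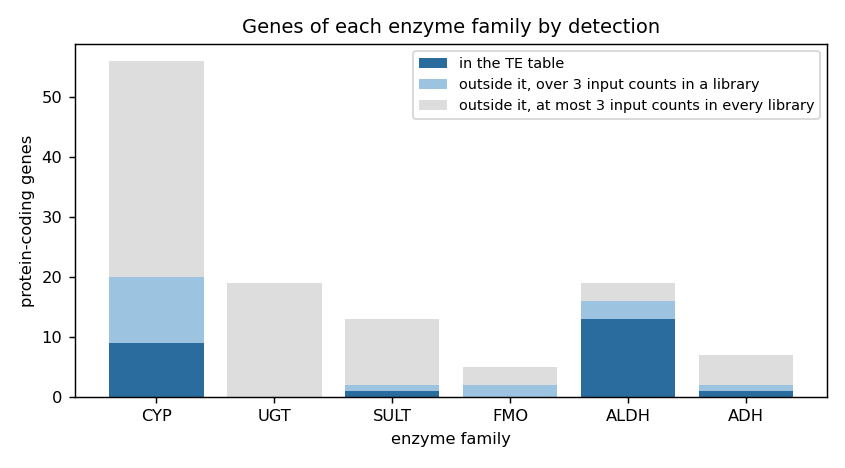
Number of protein-coding genes (y axis) of each enzyme family (x axis), stacked by whether the gene is in the TE table, outside it with over 3 input counts in a library, or outside it with at most 3 counts in every input library. The ALDH family has 13 of 19 genes in the TE table, the CYP family 9 of 56 and the UGT family 0 of 19.

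Levels were compared between genes per length, as the METTL5-WT normalised read count per kilobase of transcript for input and per kilobase of coding sequence for RPF. Input reads were counted over all annotated exons of a gene, whose total length can exceed that of the transcript used, so input levels can be overstated. ALDH3A2, the fatty aldehyde dehydrogenase of the endoplasmic reticulum, had the highest input level of the 24 genes, 484 per kb against a median of 84.1 per kb over 11224 genes. Its counted exons total 15331 bases, but the level divides by a transcript of 3703 bases, so its rank depends on the length used. ADH5, which oxidizes the glutathione adduct of formaldehyde, followed with 267 per kb, close to 263 per kb for ALDH9A1, which acts on aminobutyraldehyde and trimethylaminobutyraldehyde. The sulfotransferase SULT1A1 was at 43 per kb. Among the P450 genes the highest level was 33.9 per kb, for CYP27C1, a retinol desaturase, and the lowest was 1.76 per kb, for CYP27B1, the enzyme that activates vitamin D. Every CYP gene in the table therefore lay below the median gene in input.

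In RPF the order was different. ALDH9A1 had the highest footprint level of the 24, 1396 per coding kb against a median of 178, and ALDH7A1, which breaks down a lysine intermediate, had 1132. ADH5 had 743 per coding kb. ALDH3A2, first in input, was ninth in RPF with 231 per coding kb. These are levels within METTL5-WT cells and are a description of 2 libraries of each kind.

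The TE level, RPF per coding kb over input per kb relative to the median gene, ranged from 0.166 for CYP2U1 to 6.18 for ALDH7A1 in METTL5-WT cells. It was above the median gene for 10 of 13 ALDH genes and 3 of 9 CYP genes. ALDH7A1 (97.4th percentile of all genes) and ALDH2 (96.5th percentile), the mitochondrial enzyme that clears acetaldehyde, had the highest levels. The ALDH2 level divides input by a transcript of 9561 bases and rests on 41 and 21 RPF reads in METTL5-WT. Without division by length, the METTL5-WT TE ratios of ALDH2 were 2.35 and 1.19. These lay below 5.11 and 4.66 for ALDH3A1 and 5.01 and 4.37 for ALDH7A1. ALDH3A2 was at 0.214, the 2.88th percentile, while its neighbour on chromosome 17, ALDH3A1, was at 2.63, the 89.1th percentile. The counted exons total 15331 bases for ALDH3A2 and 3878 for ALDH3A1, while the transcripts used have 3703 and 1639 bases. The TE level of ALDH3A2 can thus be understated, and the part of this in the contrast was not tested. The 2 genes lie 52.2 kb apart, and ALDH3A1 oxidizes aromatic and medium-chain aldehydes in stomach and cornea. In METTL5-KO cells the same level was 0.25 for ALDH3A2, 1.89 for ALDH3A1 and 5.04 for ALDH7A1.

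**Figure D2:**
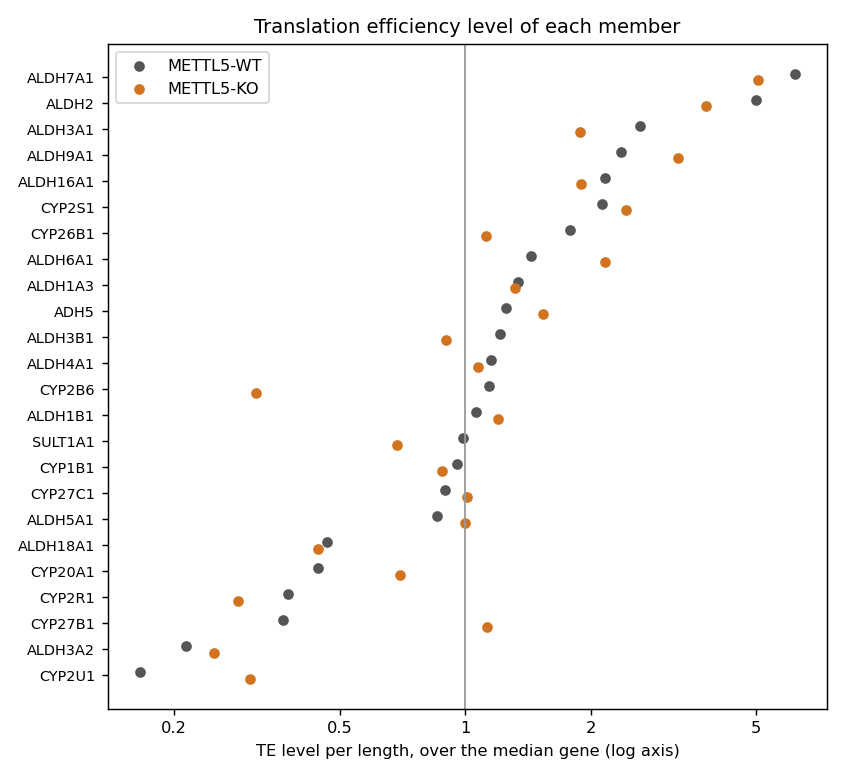
TE level per length of each of the 24 genes relative to the median gene (x axis, log scale), in METTL5-WT (grey) and METTL5-KO (orange), each point a mean of 2 lysates. ALDH7A1 is highest at 6.18 in METTL5-WT and CYP2U1 lowest at 0.166, and ALDH3A2 lies far below ALDH3A1.

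Some values rest on sequence that other genes share. All coding 28-base windows of SULT1A1 also occur in transcripts of other genes, chiefly SULT1A2, SULT1A3 and SULT1A4, so SULT1A1 is uncertain. The share was 63.1% for ADH5 (its processed pseudogenes), 44.1% for ALDH7A1 (pseudogenes) and 43% for ALDH2 (another annotated gene). It was 36.3% for CYP2B6 (the pseudogene CYP2B7P), 12.8% for ALDH3B1 (ALDH3B2) and 12% for ALDH16A1 (another annotated gene). It was 2.52% for ALDH1A3 and 0% for the other 16 genes. The counting kept reads that map to 1 place. Where the shared windows lie at another place, levels can be understated, to a degree that differs between input reads and short footprints.

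**Figure D3:**
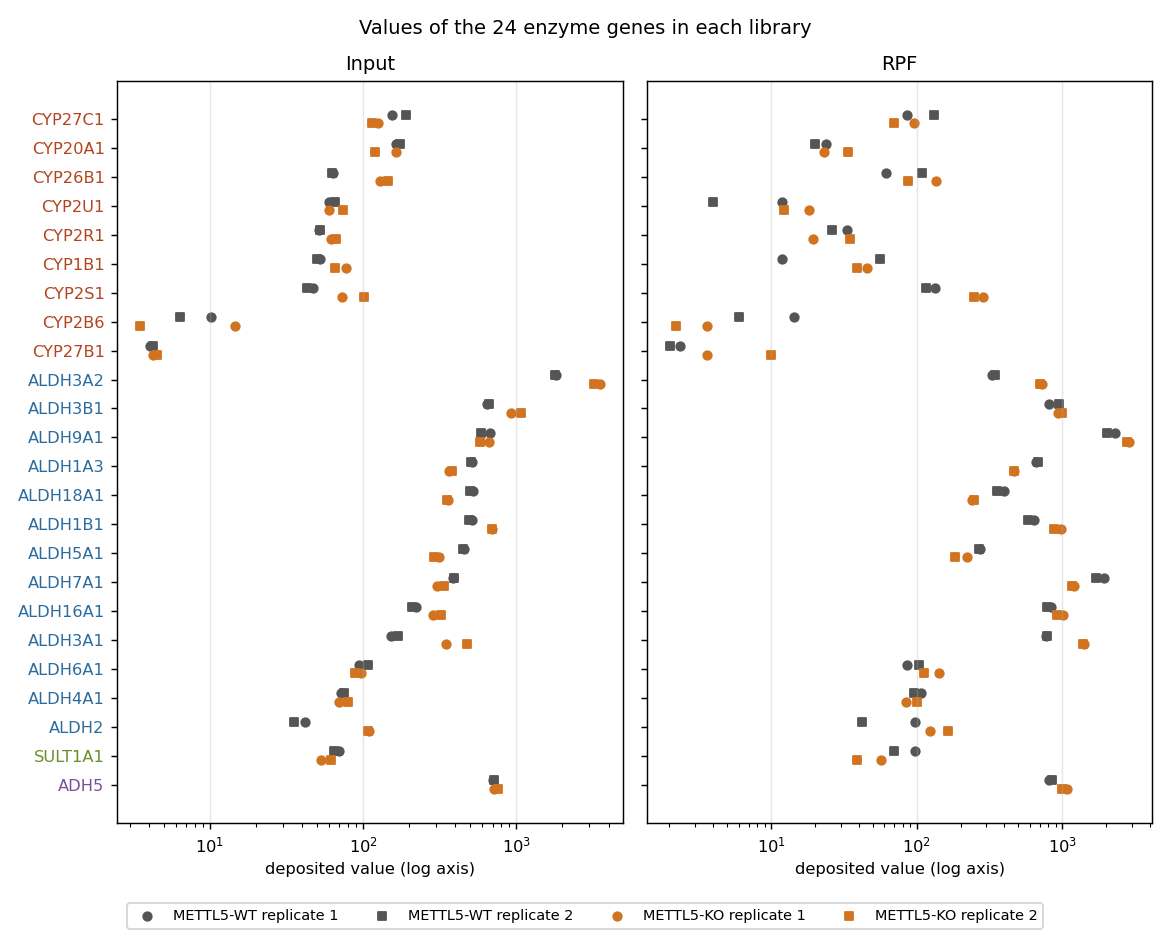
Normalised read count (x axis, log scale) of each of the 24 genes in the 4 input libraries (left) and the 4 RPF libraries (right), with METTL5-WT in grey and METTL5-KO in orange and replicates by symbol. In input, both METTL5-KO values of ALDH3A2, ALDH3A1, ALDH2 and CYP26B1 lie well above both METTL5-WT values, and the low CYP genes scatter most in RPF.

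Transcript abundance was compared first, to ask which of these mRNAs changed with METTL5 loss. In input, 8 members rose and 4 fell in METTL5-KO cells (edgeR, adjusted p under 0.05), out of 23 that could be tested, which is 52.2%. Over all genes tested, 22.4% passed the same test, 11.8% upward and 10.6% downward. CYP27B1, with 6 to 9 counts, was removed by the filter on low counts. The genes that rose were ALDH2, ALDH3A1, CYP26B1, CYP2S1, ALDH3A2, ALDH3B1, ALDH16A1 and ALDH1B1, and those that fell were ALDH5A1, CYP27C1, ALDH18A1 and ALDH1A3. In bulk RNA, fewer cells that express a gene and less RNA per cell cannot be told apart.

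ALDH3A2 (chromosome 17 from 19648136 to 19685760) had normalised input counts of 1806 and 1776 in METTL5-WT against 3516 and 3239 in METTL5-KO. The groups did not overlap, and the fitted change was 1.87-fold (log2 0.90 ± 0.11 SE, edgeR adjusted p = 2.87e-06). ALDH3A1 (chromosome 17 from 19737984 to 19748943) had 151 and 170 in METTL5-WT against 350 and 474 in METTL5-KO. Both METTL5-KO values lay above both METTL5-WT values, though the 2 METTL5-KO replicates were further apart, and the change was 2.55-fold (log2 1.35 ± 0.16 SE, adjusted p = 1.02e-06). The 40 tested genes nearest to ALDH3A1 had a median change of −0.08 on the log2 scale, with 6 higher and 4 lower.

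ALDH2 (chromosome 12 from 111766887 to 111817532) had the largest fitted change among the members. Its normalised input counts were low, 41.5 and 35.5 in METTL5-WT against 109 and 107 in METTL5-KO, from 50 to 214 reads. The METTL5-KO replicates agreed closely and lay 2.77-fold higher (log2 1.47 ± 0.23 SE, edgeR adjusted p = 4.72e-05). ALDH1B1 (chromosome 9 from 38392702 to 38398661), the mitochondrial relative of ALDH2, had 517 and 490 in METTL5-WT against 694 and 699 in METTL5-KO. That is a change of 1.37-fold without overlap (log2 0.46 ± 0.12 SE, adjusted p = 0.00723).

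ALDH3B1 (chromosome 11 from 68008578 to 68029282), which acts on lipid-derived aldehydes at membranes, had 646 and 659 in METTL5-WT against 922 and 1067 in METTL5-KO. It was 1.51-fold higher (log2 0.60 ± 0.12 SE, edgeR adjusted p = 0.000804). Of the 40 tested genes nearest to ALDH3B1, 10 rose and 2 fell, with a median of 0.16, and the part of its surroundings was not tested. ALDH16A1 (chromosome 19 from 49453225 to 49471050) had 221 and 210 in METTL5-WT against 284 and 321 in METTL5-KO, or 1.39-fold higher (log2 0.48 ± 0.14 SE, adjusted p = 0.0192). ALDH16A1 differs from its relatives in having 2 ALDH domains. Of the 40 tested genes nearest to it, 10 rose and 1 fell, with a median change of 0.24, and the part of its surroundings was not tested. After removal of a trend on coding GC content, ALDH16A1 was at 0.29 and no longer passed (adjusted p = 0.073).

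Of the 4 genes that fell in input, 3 are ALDH genes. ALDH5A1 (chromosome 6 from 24494867 to 24537207), which removes succinic semialdehyde from GABA breakdown, had 456 and 446 in METTL5-WT against 313 and 289 in METTL5-KO, 1.51-fold lower (log2 −0.60 ± 0.13 SE, edgeR adjusted p = 0.00162). ALDH18A1 (chromosome 10 from 95605941 to 95656711), which makes the precursor of proline and ornithine and is not a detoxifying enzyme, had 519 and 496 against 360 and 355. It was 1.43-fold lower (log2 −0.52 ± 0.13 SE, adjusted p = 0.00406). Of the 40 tested genes nearest to ALDH18A1, 1 rose and 10 fell, with a median of −0.10, and the part of its surroundings was not tested. ALDH1A3 (chromosome 15 from 100877714 to 100916626), which makes retinoic acid from retinal, had 516 and 503 against 365 and 380. It was 1.38-fold lower (log2 −0.46 ± 0.13 SE, adjusted p = 0.00903).

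P450 genes that passed in input were CYP26B1, CYP27C1 and CYP2S1, the first 2 of which act on retinoids. CYP26B1 (chromosome 2 from 72129238 to 72148038), which breaks down retinoic acid, had normalised counts of 64 and 62.5 in METTL5-WT against 128 and 145 in METTL5-KO, 2.14-fold higher (log2 1.10 ± 0.20 SE, edgeR adjusted p = 0.000266). CYP27C1 (chromosome 2 from 127183832 to 127220313) had 154 and 190 against 125 and 114, 1.45-fold lower (log2 −0.54 ± 0.17 SE, adjusted p = 0.028). CYP27C1 was not called by DESeq2 (adjusted p = 0.081) or without the filter on low counts (adjusted p = 0.0564). CYP2S1 (chromosome 19 from 41193210 to 41207539), a P450 of tissues outside the liver, had 47 and 43.3 against 72.9 and 102, 1.93-fold higher (log2 0.95 ± 0.25 SE, adjusted p = 0.00673). Of the 40 genes around CYP2S1, 11 rose and 3 fell, with a median of 0.29, and the part of its surroundings was not tested.

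The other 11 tested members did not pass in input. The fitted change was 0.05 ± 0.12 for ADH5, −0.24 ± 0.24 for SULT1A1 and −0.26 ± 0.18 for CYP20A1, a P450 without a well-established substrate, which was called without METTL5-KO input replicate 1 (−0.48, edgeR adjusted p = 0.0218). CYP1B1, which oxidizes polycyclic aromatic compounds and estradiol and is a known target of the aryl hydrocarbon receptor, had 52.4 and 49.7 in METTL5-WT against 77.8 and 65.3 in METTL5-KO (log2 0.47 ± 0.24 SE, edgeR adjusted p = 0.176). CYP2B6, a drug-oxidizing P450, had 10.2 and 6.39 against 14.5 and 3.51, so its replicates overlapped. The call of 8 of the 12 genes depended on the METTL5-WT libraries or on a setting: 5 genes passed without METTL5-WT input replicate 1 and 4 without METTL5-WT input replicate 2. Over all genes the number called fell as well, from 3149 to 1220 and 1368. The fold changes moved less, as for ALDH18A1 at −0.48 and −0.55 against −0.52 with all libraries. CYP2S1 and CYP27C1 were also not called without METTL5-KO input replicate 2 (log2 0.68 and −0.48). ALDH2, ALDH3A1, ALDH3A2 and CYP26B1 passed under all 10 alternatives.

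Footprints were compared next, to ask whether ribosome output from these mRNAs changed. In RPF, 6 members rose and 3 fell in METTL5-KO cells by limma and edgeR together, 9 of 24 or 37.5%, where 26.6% of all genes passed in the same way (14.1% upward and 12.5% downward). The genes that rose were ALDH2, ALDH3A2, CYP2S1, ALDH3A1, ALDH1B1 and ALDH9A1, and those that fell were ALDH18A1, ALDH7A1 and ALDH1A3. Of 23 members, 7 passed in input and RPF in the same direction (30.4%), against 11.1% of 11003 genes tested in both. RPF and TE changes were fitted to log2(value + 1), so RPF changes of genes with low values are understated. Their TE changes can be shifted in either direction.

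ALDH3A2 had normalised RPF counts of 328 and 345 in METTL5-WT against 730 and 705 in METTL5-KO. This was 2.13-fold higher without overlap (log2 1.09 ± 0.10 SE, limma adjusted p = 7.58e-07, edgeR adjusted p = 1.54e-07). ALDH3A1 had 772 and 792 in METTL5-WT against 1410 and 1382 in METTL5-KO, 1.78-fold higher (log2 0.83 ± 0.14 SE, limma adjusted p = 0.000399). The METTL5-KO footprint values of ALDH3A1 were close together, unlike its input values.

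ALDH2 had 97.4 and 42.1 in METTL5-WT against 124 and 163 in METTL5-KO, from 21 to 146 reads. The METTL5-WT replicates differed more than 2-fold, and the change of 2.2-fold (log2 1.14 ± 0.33 SE, limma adjusted p = 0.0164) fell to 0.54 on the log2 scale without METTL5-WT replicate 2 (adjusted p = 0.19). It did not pass without METTL5-KO replicate 1 (adjusted p = 0.093) or without METTL5-KO replicate 2 (adjusted p = 0.22) either. ALDH1B1 had 639 and 578 against 977 and 879, 1.52-fold higher (log2 0.61 ± 0.12 SE, limma adjusted p = 0.00102). CYP2S1 had 133 and 116 against 285 and 249, 2.13-fold higher (log2 1.09 ± 0.24 SE, limma adjusted p = 0.00304). Its adjusted p was 0.0507 without METTL5-KO replicate 1.

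ALDH7A1 and ALDH9A1 passed in RPF and not in input. ALDH7A1 (chromosome 5 from 126531200 to 126595362) had normalised RPF counts of 1948 and 1713 in METTL5-WT against 1204 and 1171 in METTL5-KO, 1.54-fold lower (log2 −0.62 ± 0.12 SE, limma adjusted p = 0.000787, edgeR adjusted p = 0.000106). Its input was 389 and 392 against 305 and 338 (log2 −0.29 ± 0.13 SE, edgeR adjusted p = 0.118). ALDH7A1 was however called in input without METTL5-KO input replicate 2 (−0.37, edgeR adjusted p = 0.021) and with the GC trend removed together with the replicate block (−0.30, edgeR adjusted p = 0.0315). ALDH9A1 (chromosome 1 from 165662216 to 165698863) had 2312 and 2028 RPF counts against 2898 and 2766, 1.31-fold higher (log2 0.39 ± 0.11 SE, limma adjusted p = 0.0165). The ALDH9A1 input values overlapped, with 670 and 590 against 666 and 577. Its RPF call was lost with quantile normalization (0.27, adjusted p = 0.0849) and in 3 of the 4 fits that left out a lysate, those without METTL5-WT replicate 2 or without either METTL5-KO replicate. Whether RPF and input changed by different amounts is the TE test below.

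ALDH18A1 and ALDH1A3 fell in RPF as in input. ALDH18A1 had 397 and 355 in METTL5-WT against 238 and 249 in METTL5-KO, 1.54-fold lower (log2 −0.62 ± 0.14 SE, limma adjusted p = 0.00293). ALDH1A3 had 665 and 682 against 469 and 469, 1.43-fold lower (log2 −0.52 ± 0.12 SE, limma adjusted p = 0.00409). ALDH18A1 was not called without METTL5-WT replicate 1, where limma gave an adjusted p of 0.0405 and edgeR did not pass. ALDH1A3, ALDH1B1, ALDH3A1, ALDH3A2 and ALDH7A1 passed in RPF under all 17 alternatives.

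**Figure D4:**
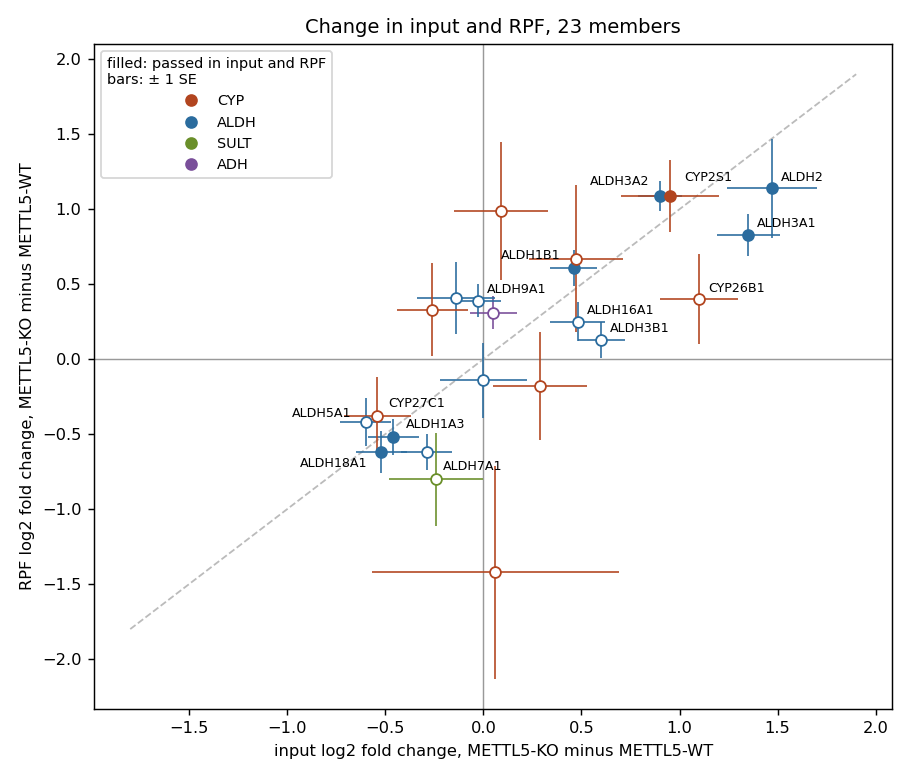
Log2 fold change of METTL5-KO minus METTL5-WT in input (x axis) and RPF (y axis) for the 23 genes tested in both, with bars of 1 SE. The dashed line marks equal change, filled points passed the tests in both with the same direction, and names are given for genes that passed in either. The 7 filled points run from −0.52 and −0.62 for ALDH18A1 to 1.47 and 1.14 for ALDH2, and ALDH3A1, at 1.35 and 0.83, lies furthest below the dashed line among them.

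Other genes passed in input and not in RPF. CYP26B1 had RPF values of 61.8 and 108 in METTL5-WT against 135 and 87 in METTL5-KO, so the genotypes overlapped (log2 0.40 ± 0.30 SE, limma adjusted p = 0.332). ALDH3B1 had 817 and 949 against 938 and 989 (log2 0.13 ± 0.12 SE, limma adjusted p = 0.44). ALDH16A1 was at 0.25 ± 0.13, ALDH5A1 at −0.42 ± 0.16 and CYP27C1 at −0.38 ± 0.26. With the GC trend removed, ALDH16A1 passed in RPF (0.43, limma adjusted p = 0.00895), where its input call was lost. ALDH5A1 passed in RPF without METTL5-KO replicate 1 (−0.56).

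ADH5 passed by limma alone. Its RPF values were 817 and 850 in METTL5-WT against 1078 and 992 in METTL5-KO (log2 0.31 ± 0.11 SE, limma adjusted p = 0.0399, edgeR adjusted p = 0.0707). SULT1A1, which sulfates phenols, had 97.4 and 70.2 against 56.7 and 39 (log2 −0.80 ± 0.31 SE, limma adjusted p = 0.0584). Footprint counts of some P450 genes were low. CYP1B1 had 5 and 28 reads in the METTL5-WT replicates, CYP2U1, a fatty acid hydroxylase, had 5 and 2, CYP2B6 6 and 3, and CYP27B1 1 and 1. None of these 4 passed with all libraries. CYP1B1 passed without METTL5-WT replicate 2 (1.75, limma adjusted p = 0.00123), the fit that keeps its lower METTL5-WT value.

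Translation efficiency was tested as the change in RPF beyond the change in input, the question the study asks of METTL5. None of the 24 members passed by limma and edgeR together, where 4.72% of 11240 genes did. The count was also 0 by limma alone, edgeR alone and DESeq2 alone, which called 4.79%, 6.81% and 7.46% of all genes. At such small shares, a count of 0 among 24 genes says little about these members. At an unadjusted p under 0.05 there were 3 members by limma, 4 by edgeR and 3 by DESeq2, against 22.6%, 23.8% and 20.8% of all genes. The median TE change was 0.03 over the 24 members and 0.02 over all genes tested.

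The 3 members with the smallest limma p were ALDH3B1, ALDH9A1 and ALDH3A1. ALDH3B1 had TE ratios of 1.26 and 1.44 in METTL5-WT against 1.02 and 0.927 in METTL5-KO (log2 −0.47 ± 0.17 SE, limma adjusted p = 0.101). ALDH3A1 had 5.11 and 4.66 against 4.03 and 2.91 (log2 −0.51 ± 0.20 SE, limma adjusted p = 0.151). ALDH9A1 had 3.45 and 3.44 against 4.35 and 4.79 (log2 0.41 ± 0.16 SE, limma adjusted p = 0.145). None of these 3 genes passed the correction. With the GC trend removed, the changes were −0.14 for ALDH3B1, −0.28 for ALDH3A1 and 0.31 for ALDH9A1, and the members' median coding GC content was 57.2% against 52.3% for all genes.

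Of the 7 genes that passed in both input and RPF, ALDH3A1 had the TE change furthest from 0, given above, and none passed in TE. The change was 0.18 ± 0.15 (SE) on the log2 scale for ALDH3A2, with ratios of 0.182 and 0.194 in METTL5-WT against 0.208 and 0.218 in METTL5-KO. It was 0.14 ± 0.17 for ALDH1B1, −0.07 ± 0.17 for ALDH1A3, −0.12 ± 0.20 for ALDH18A1, 0.17 ± 0.35 for CYP2S1 and −0.33 ± 0.47 for ALDH2. ALDH7A1 had TE ratios of 5.01 and 4.37 against 3.95 and 3.47 (log2 −0.34 ± 0.16 SE, limma adjusted p = 0.231). The members furthest from 0 were CYP2B6 at −1.30 ± 1.01, CYP27B1 at 1.11 ± 1.02 and CYP2U1 at 0.89 ± 0.65, the 3 with the fewest footprints.

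**Figure D5:**
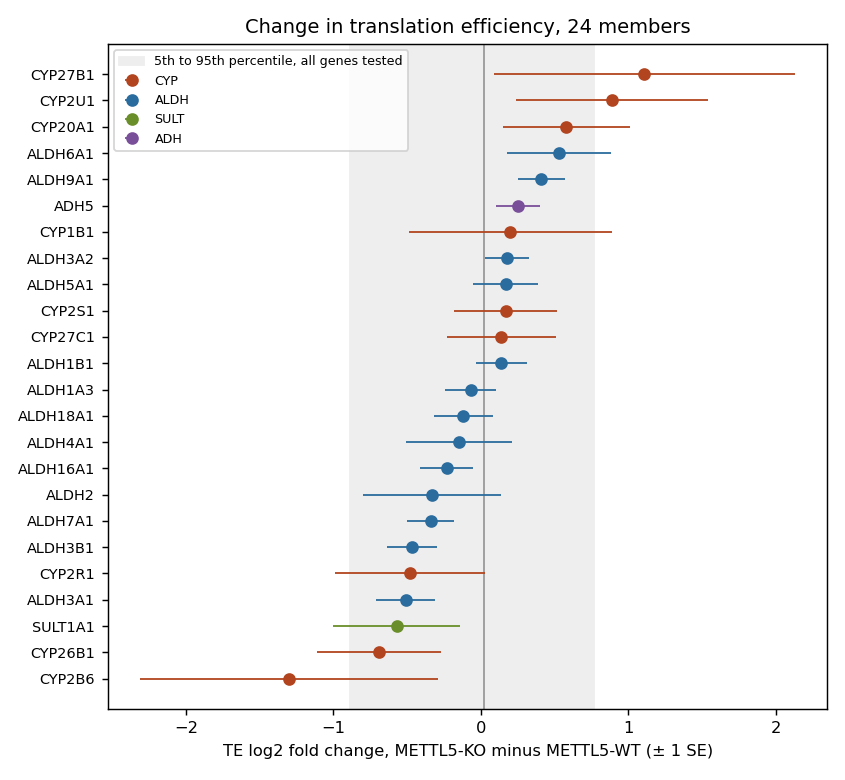
TE log2 fold change of METTL5-KO minus METTL5-WT (x axis) for the 24 genes with bars of 1 SE, coloured by family. Grey shading spans the 5th to 95th percentile of all genes tested (−0.89 to 0.77), and the 3 genes outside it are CYP2B6, CYP27B1 and CYP2U1. CYP27B1 and CYP2B6 have the widest bars (SE 1.02 and 1.01). CYP1B1, inside the shading, has a slightly wider bar than CYP2U1 (0.69 against 0.65).

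Values were also summed over each family in each library. The 13 ALDH genes summed to normalised input counts of 6100 and 5949 in METTL5-WT against 8050 and 8014 in METTL5-KO, a ratio of 1.33. ALDH3A2 alone made up 29.7% of the METTL5-WT sum and 42% of the METTL5-KO sum, and without it the sums were 4293 and 4172 against 4534 and 4775, a ratio of 1.1. In RPF the ALDH sums were 9272 and 8736 against 10452 and 10082, a ratio of 1.14, and 1.03 when scaled to library totals, which shifts every RPF change by −0.15 on the log2 scale. The largest RPF contributor was ALDH9A1, with 24.1% and 27.6%.

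The 9 CYP genes summed to input counts of 607 and 648 in METTL5-WT against 709 and 697 in METTL5-KO, a ratio of 1.12. Their RPF sums were 378 and 471 against 628 and 537, a ratio of 1.37. CYP2S1 made up 30% of the METTL5-WT and 45.8% of the METTL5-KO footprints, and without it the RPF ratio was 1.05. The sums are a description, and no test was run on them. The median member changed by 0.06 in input and 0.32 in RPF, against 0.00 and 0.02 over all genes.

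Genes that serve these enzymes were looked at as lists, to be read against the 22.4% of all genes called in input and 26.6% in RPF. Of the electron donors, 1 rose and 1 fell among 7 tested in input (28.6%), with a median change of 0.26, and 3 rose and 1 fell in RPF (57.1%). CYB5B, a mitochondrial cytochrome b5, was the called donor with the largest input change, at 2150 and 1989 counts in METTL5-WT against 1610 and 1924 in METTL5-KO before correction for depth (log2 −0.58 ± 0.11 SE, edgeR adjusted p = 0.000536). POR, the reductase that feeds the microsomal P450s, did not pass in input (0.30 ± 0.12, edgeR adjusted p = 0.071) but rose in RPF, with 5360 and 5361 in METTL5-WT against 7016 and 7200 in METTL5-KO (log2 0.41 ± 0.10 SE, limma adjusted p = 0.00527).

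Of 12 genes of heme synthesis and breakdown, 2 rose in input (16.7%), below the share of all genes, and in RPF 5 rose and 1 fell (50%), with a median of 0.27. The largest input change was in HMOX1, the heme oxygenase that degrades heme, with 187 and 194 counts against 496 and 619 (log2 1.19 ± 0.15 SE, edgeR adjusted p = 3.19e-06). ALAS1, the rate-limiting enzyme of heme synthesis in liver, was at 0.12 ± 0.13 in input.

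Receptors that switch on drug-metabolizing genes were partly at 0. NR1I2 (PXR) and NR1I3 (CAR) had 0 counts in all 4 input libraries, while the aryl hydrocarbon receptor AHR had 160 to 268 counts and did not pass (log2 0.35 ± 0.18 SE, edgeR adjusted p = 0.173). Of 7 receptors and transcription factors tested, 1 was called in input (14.3%), below the share of all genes. This was RXRA, the shared partner of many nuclear receptors, and it rose (log2 0.73 ± 0.13 SE, edgeR adjusted p = 0.000278). In RPF 1 other gene of the list rose (14.3%). RXRA was also lower in TE, with ratios of 1.67 and 1.72 in METTL5-WT against 0.959 and 0.933 in METTL5-KO (log2 −0.84 ± 0.20 SE, limma adjusted p = 0.0234, edgeR adjusted p = 0.00776). Its RPF values overlapped, with 501 and 541 against 452 and 520. The TE call of RXRA was lost after removal of the GC trend (−0.53, adjusted p = 0.104) and when any of the 4 lysates was left out (adjusted p from 0.0685 to 0.163).

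Among 18 other phase I enzymes, 6 rose and 2 fell of 15 tested in input (53.3%, median 0.37), and 6 rose and 1 fell of 13 in RPF (53.8%, median 0.87). CES1, a carboxylesterase, had 0 and 1 counts in METTL5-WT against 148 and 200 in METTL5-KO, and it is not in the TE table. CES1 is among the 6 that rose in input, but passed the filter on low counts only through METTL5-KO, where it is high. The 53.3% therefore includes a gene that was tested because it was high in METTL5-KO. NQO1, a quinone reductase, rose in TE, with ratios of 1.72 and 1.78 against 3.39 and 4.39 (log2 1.14 ± 0.15 SE, limma adjusted p = 0.00157, edgeR adjusted p = 7.65e-05). RDH11, a retinal reductase, also rose in TE, with 0.459 and 0.403 against 0.735 and 0.759 (log2 0.79 ± 0.20 SE, limma adjusted p = 0.0346). RDH11 did not pass when any lysate was left out (adjusted p from 0.0701 to 0.184), and NQO1 did not pass without METTL5-KO replicate 2 (adjusted p = 0.0554). NQO1, RXRA and RDH11 were the only genes of these lists called in TE.

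Of 9 genes that supply cosubstrates for conjugation, 1 rose and 3 fell in input (44.4%, median −0.14), and 1 rose and 1 fell in RPF (22.2%), below the share of all genes. The largest input change was in SLC26A2, a sulfate transporter, with 1118 and 1097 counts against 926 and 869 (log2 −0.65 ± 0.13 SE, edgeR adjusted p = 0.000695). UGDH, which makes UDP-glucuronic acid, was the 1 that rose in input (0.49 ± 0.12), and it rose in RPF too (0.68 ± 0.10). Of 5 other conjugating enzymes tested, 1 fell in RPF. Of 8 drug transporters tested in input, 2 rose and 2 fell (50%). Among these calls, SLCO2B1 and ABCB1 passed the filter on low counts only through the genotype where they are high. The 50% is therefore not to be read against the share of all genes. SLCO2B1, an organic anion uptake carrier, had 0 and 0 counts against 11 and 21, and its fitted change depends on the prior count, so it was not ranked against the others.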

How the data were processed

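Input and RPF were measured in 4 lysates. For input, the authors trimmed reads, aligned them to hg38 with STAR 2.7.3a and deposited raw counts per gene from featureCounts, counted by strand over exons from uniquely mapped reads. The table held 60718 genes after 3 broken lines were left out. For RPF, the authors kept fragments of 25 to 34 nt and used RiboToolkit. The deposited TE table is named RPKM, but its signal values are whole reads times a constant per library (100% whole within 0.05), and are called normalised read counts here. The authors' TE fold changes and p-values were not used.

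For input, the edgeR 4.0.16 quasi-likelihood test was run on the counts with TMM scaling after filterByExpr. For RPF and TE, limma 3.58.1 (eBayes, trend) was run on log2(value + 1) with 8 libraries in 1 model, for genes with a mean of at least 1. A gene rose or fell in RPF or TE only where edgeR on the recovered reads also gave the same direction at an adjusted p under 0.05. Tests are two-sided, with Benjamini-Hochberg adjustment over all genes. Coding sequences came from GENCODE 44. DESeq2 1.42.0, R 4.3.3 and Python 3.11.15 were also used. The fits were tested on simulated data. Alternatives were other scalings, pseudocounts, filters, a GC correction, replicate blocks and leaving out each library. Members called in any measure are described, with the highest member of each family by input level, and, of the lists, genes called in TE and the called gene with the largest input change. POR, ALAS1, AHR, UGDH, ABCB1 and the members that did not pass were chosen for naming after their values were seen. The members and lists were chosen with earlier results of these data known.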

Additional observations from a re-analysis of the deposited data

Results flagged for a closer look

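Outside the TE table, the genes of these families tested in input were CYP11A1, CYP39A1, CYP4F11, CYP4F22 and CYP4F3. Of these, 3 were called higher in METTL5-KO input by edgeR, where 11.8% of all genes tested were called higher. The number called cannot be compared with that share, because CYP4F11 and CYP4F3 entered the test only through METTL5-KO. CYP4F11, a fatty acid hydroxylase (chromosome 19 from 15912367 to 15934867), had 8 and 6 counts in METTL5-WT against 214 and 196 in METTL5-KO (log2 4.51 ± 0.34 SE). CYP4F3, a leukotriene hydroxylase (chromosome 19 from 15640897 to 15662825), had 0 and 1 counts against 26 and 26 (fitted log2 5.07). CYP4F11 and CYP4F3 passed the filter on low counts only through METTL5-KO, where they are high. Their p-values are therefore not given. The fitted value of CYP4F3 depends on the prior count, since METTL5-WT was at the floor. Of its coding 28-base windows, 43.5% also occur in other CYP4F genes or pseudogenes, CYP4F11 among them, and for CYP4F11 the share was 14.4%, so the split of reads between these copies is uncertain. CYP39A1, an oxysterol hydroxylase of bile acid synthesis (chromosome 6 from 46549580 to 46652830), had 11 and 12 counts against 94 and 68 (log2 2.47 ± 0.40 SE, edgeR adjusted p = 8.64e-05). None of the 3 has RPF or TE values here.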

How the results depend on the processing

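Across the alternatives, 11 to 12 members were called in input under other scalings, tools, filters and corrections, and 4 to 13 when 1 library was left out, 5 and 4 without METTL5-WT replicate 1 and 2, where the share of all genes called fell from 22.4% to 8.13% and 9.11%, and 13 without METTL5-KO replicate 1, where it was 37.4%. In RPF 7 to 10 members were called, and in TE 0 under each of the 18 alternatives, with the replicate block on the lysate among them. The 0 says little under any of them, because few genes were called in TE at all. Only 1 gene was called without the variance trend, and at most 7.46% of all genes in the others (DESeq2). Samples of the same number deviated together little (r = 0.04 in input, 0 in RPF), and so did the input and RPF libraries of a lysate (r = −0.02 in METTL5-WT and 0.05 in METTL5-KO). The replicate block on the number gave 12 members in input, 9 in RPF and 0 in TE, and changed no call of a member. Calls were gained with other settings for ALDH7A1 and CYP20A1 in input and for ADH5, ALDH16A1, ALDH5A1 and CYP1B1 in RPF.

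METTL5 did not pass in TE without the variance trend (−1.69) or in 2 of the 4 fits without a lysate (METTL5-WT replicate 2 and METTL5-KO replicate 2), which ranged from −1.86 to −1.53. Without the member with the highest sum, the log2 ratio of the CYP sum moved to 0.29 in input and 0.08 in RPF, and that of the ALDH sum to 0.14 and 0.12. Scaled to library totals the ALDH sum in RPF was at 0.04.

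Changes of direction were limited to values that did not pass, and their cause was not tested. In input, ALDH4A1 was at −0.0032 with the replicate block and −0.16 with the GC trend removed, with or without the block, and CYP2B6 at −0.041 with the block and −0.095 with both. In TE with the GC trend removed, with or without the replicate block on the lysate, ALDH16A1 was at 0.14, ALDH3A2 at −0.019 and ALDH4A1 at 0.13. CYP1B1 was at −0.25 in TE by edgeR. With 1 library left out, the input change ranged from −0.10 to 0.11 for ALDH4A1, −0.13 to 0.067 for ALDH9A1, −1.23 to 0.78 for CYP2B6 and −0.068 to 0.25 for CYP2U1. With 1 lysate left out, the RPF change ranged from −0.40 to 1.75 for CYP1B1 and −0.59 to 0.22 for CYP2R1. The TE change then ranged from −0.82 to 0.15 for ALDH2, −0.91 to 1.31 for CYP1B1, −0.02 to 0.30 for CYP27C1 and −0.17 to 0.51 for CYP2S1. Where a fit left 1 library of a genotype, that library was assumed to vary like the others. CYP2B6, CYP27B1 and CYP2U1 had at most 6 reads in each METTL5-WT RPF library.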

Other observations

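CYP4F22, a ceramide hydroxylase of skin, differed between replicates of the same genotype, with 148 and 15 input counts in METTL5-WT against 7 and 128 in METTL5-KO (edgeR adjusted p = 0.498). CYP11A1, which starts steroid synthesis, had 15 and 13 counts against 25 and 54 (edgeR adjusted p = 0.0929). The multidrug exporter ABCB1 had 42 and 41 input counts in METTL5-WT against 0 and 1 in METTL5-KO, and it was chosen after its values were seen. ABCB1 passed the filter on low counts only through METTL5-WT, so no p-value is given. CYP4X1 had 0 and 0 counts against 10 and 10, and was removed by the filter on low counts.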
